A study of Mus musculus with 24 samples.

Results

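Ventral excitatory (VE) and ventral inhibitory (VI) neurons of the lumbar spinal cord were compared within the same untreated control mice. Members were the single nuclei that the authors' deposited annotation names VE or VI followed by a number. Of 18000 barcodes in the series, 4280 nuclei carried a neuron population, and 2082 of those came from control mice. Control mice held 194 VE and 380 VI nuclei. A mouse entered when it had at least 5 nuclei of both kinds, which left 192 VE and 376 VI nuclei, 568 in all, in 8 of 9 control mice. Control replicate 4, with 2 VE and 4 VI nuclei, was left out.

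The series profiled nuclei of male and female ICR/CD-1 mice, an outbred stock, aged 8 to 11 weeks, by Drop-seq, a droplet method that counts mRNA molecules by unique molecular identifiers (UMIs). It asked which cell types make up the cord and which are active during behaviour. Besides the 9 control mice there were 10 mice given 30 µl of 2% paraformaldehyde into the sole of both hindpaws (formalin) and 5 mice run on a rotarod that sped up to 40 rotations per minute over 5 minutes. The tissue label reads brain, whereas the protocol describes the lumbar spinal cord with the dorsal root ganglia removed. No transgene, Cre or sort is named in the labels, so the 2 groups are defined by the clustering alone.

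Ventral spinal neurons form the circuits that set the timing and pattern of movement. Excitatory interneurons load glutamate into vesicles through VGLUT2, the product of Slc17a6. Inhibitory interneurons release GABA or glycine. Glycine is gathered at the terminal by GlyT2, the product of Slc6a5, GABA is made by the enzymes encoded by Gad1 and Gad2, and both are loaded by the vesicular transporter encoded by Slc32a1. Ventral interneurons arise from a series of progenitor domains of the embryonic cord, and transcription factors such as Pax2 mark inhibitory lineages.

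The depth differed between the families. Summed VE nuclei held 20825 to 482836 UMIs per mouse, with a median of 171412.5, and VI nuclei 37762 to 640858, with a median of 123882. A VE nucleus held 6864 ± 2378 UMIs (SD, n = 8 mice) and a VI nucleus 5037 ± 1208. The mean per nucleus was higher in VE in 6 of 8 mice, by 0.43 on the log2 scale (two-sided exact sign-flip permutation test, p = 0.0625, where 0.0078 is the smallest p possible). With medians per nucleus in place of means the difference was 0.83 and VE was higher in 8 of 8 mice (exact p = 0.0078, the smallest possible). None of the 574 VE and VI nuclei of control mice shared a barcode with another.

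The makeup of the families also differed between mice. VE consisted of 4 populations and VI of 5. VI-2, the largest by nuclei, had 185 in control mice. All of them came from the 3 mice whose titles end in cx, a suffix the labels do not explain. Those mice are control replicates 7, 8 and 9, with 52, 16 and 117 VI-2 nuclei. VI-3 followed the same split, with 33 of 34 nuclei in those mice. VI-1 went the other way, with 64 of its 73 nuclei in the other control mice. In all, 49.0% of VE nuclei against 74.7% of VI nuclei came from the 3 cx mice. Median depth per nucleus was 2179 UMIs in VI-2 and 2616 in VI-1, against 10227 in VI-5 and 8288 in VE-4, the largest VE population. The summed libraries follow UMIs, of which VI-5 held 787032 in control mice, VI-2 452845 and VI-1 199133, while VE-4 held 993407. Without VI-1 and VI-2 the VI sums rest mostly on VI-5, beside 168832 UMIs in VI-3 and 136687 in VI-4. No alternative left out VI-5. Main results below are therefore also given without the 3 cx mice, and without VI-1 and VI-2, where the gene passed the filter there.

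**Figure D1:**
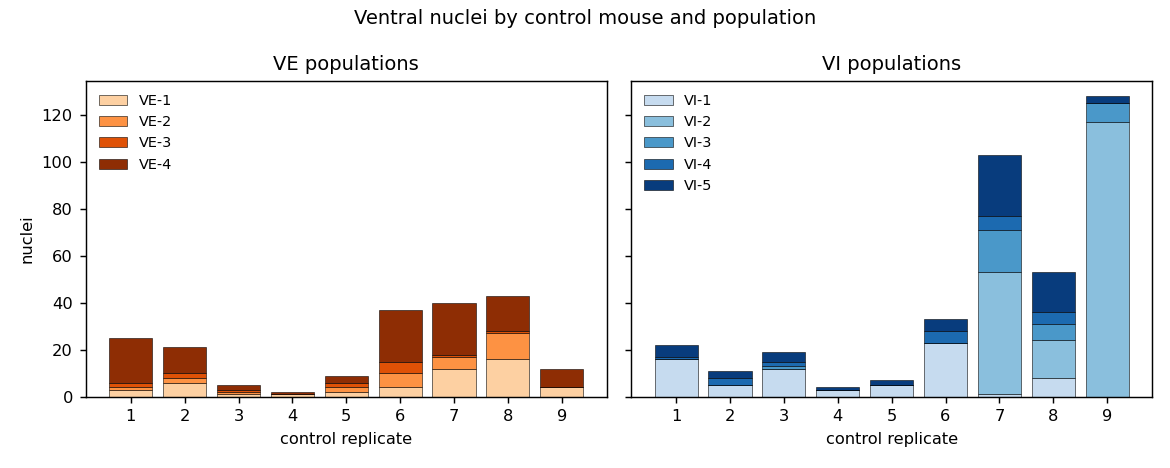
Nuclei of each VE population (left) and VI population (right) in the 9 control mice, stacked; the y axis counts nuclei. VI-2 appears only in replicates 7, 8 and 9, with 52, 16 and 117 nuclei, and VI-1 mostly in the others.

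Slc17a6 and the inhibitory genes below, by which such families are usually named, differed in the direction of the labels, although not cleanly for Slc17a6. Slc17a6 (chr7:51622006-51671119, GRCm38) stood at 48.0, 77.8 and 117 CPM (UMIs per 1000000 UMIs of the same nuclei; lowest, median and highest mouse) in VE. In VI it stood at 10.5, 32.2 and 62.5 CPM. The means were 79.2 ± 20.7 and 37.4 ± 18.0 CPM (SD, n = 8). VE was higher in 7 of 8 mice, the ranges overlapped, and control replicate 3, with 48.0 CPM in VE and 62.5 in VI, went the other way. Oligodendrocyte nuclei of the same mice, which should lack the gene, held 22.5 ± 18.4 CPM, while dorsal excitatory (DE) and dorsal inhibitory (DI) nuclei held 122 ± 39.6 and 9.99 ± 13.1 CPM. Only 122 VE and 68 VI UMIs of Slc17a6 were counted, too few for the expression filter, and these values are a description. Slc17a6 was among the genes called higher in VE in 5 alternatives: no filter, at least 10 nuclei per family, and without control replicate 2, 3 or 5. DESeq2 gave it no adjusted p. Of 5 glutamatergic identity genes listed, 2 passed the filter, both toward VI (median log2 fold change -0.06, VE minus VI), and neither was called.

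The 4 inhibitory genes Slc32a1, Gad1, Gad2 and Slc6a5 summed to 227.6 ± 41.3 CPM in VI, with mice from 175 to 299.6. In VE they summed to 67.0 ± 39.7 CPM, with mice from 29.3 to 144, so the groups did not overlap. Oligodendrocytes held 45.4 ± 28.2 CPM of the same genes. Most of the VI sum was Slc6a5 (chr7:49910146-49963856), the glycine transporter, at 92.0, 134 and 177 CPM in VI against 0, 37.0 and 83.2 CPM in VE. Every VI library lay above every VE library. The fitted log2 fold change, VE minus VI, was -1.93 (SE 0.36, edgeR quasi-likelihood adjusted p = 0.0032), and without the cx mice it was -1.38 with an adjusted p of 0.0786. Gad2 was higher in VI in 8 of 8 mice, at 64.3 ± 41.7 against 24.6 ± 16.3 CPM, on 94 and 45 UMIs. Of 8 GABA and glycine identity genes listed, 3 were tested, 2 toward VI and 1 toward VE, and Slc6a5 alone was called. Chat, the enzyme of acetylcholine synthesis in motor neurons, and Slc17a7, which encodes VGLUT1, stayed below 4 CPM on average in both families.

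Populations within VI carried unlike amounts of the excitatory marker. Pooled over mice, VI-4 held 7.32 CPM of Slc17a6 (95% exact Poisson interval 0.185 to 40.8, counting error only, as for all such intervals here) and VI-5 26.7 (16.5 to 40.8). VI-1 held 75.3 CPM (42.2 to 124), about the level of VE-4 at 73.5 (57.6 to 92.4), and VI-2 held 53.0 (34.0 to 78.9). The 4 inhibitory genes summed to 206 CPM in VI-1 and 188 in VI-2, against 77.5 in VE-4. VI-3 held 41.5 CPM of Slc17a6 (16.7 to 85.4) and 142 CPM of the inhibitory genes. VI-1 and VI-2 thus carried both kinds of marker in the pooled counts, while Slc17a6 was lowest in VI-4 and VI-5. The VI-4 value rests on 1 UMI, and the intervals of VI-5 and VI-2 overlap.

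Across all genes, 88 of 2805 tested (3.14%) differed between VE and VI at an adjusted p below 0.05, 51 of them higher in VE (1.82%) and 37 higher in VI (1.32%). The groups of 8 libraries did not overlap for 11 of the 2805 genes (0.392%), and 9 of those 11 were called. Since the populations were clustered from the same nuclei, these p-values measure how steadily a difference between clusters recurred over mice and are no independent evidence that the clusters differ. Without the 3 cx mice 14 of 1907 genes tested were called (0.734%), 7 in each direction (0.367% each), and 12 of the 14 were among the 88. Leaving out VI-1 and VI-2 also left only 7 mice with at least 5 nuclei of both families. There 15 of 2264 genes tested were called (0.663%), 7 higher in VE (0.309%) and 8 higher in VI (0.353%). Of the 15, 14 were among the 88. In that comparison the median log2 fold change of the called genes tested in both went from 0.53 to 0.38 for those higher in VE and from -0.76 to -0.57 for those higher in VI. Both of these reduced comparisons called 7 of the 88 genes, namely Cacna2d1, Ralyl and Gm26871, higher in VE, and Cacna2d3, Nrxn3, Nxph1 and Mtss1, higher in VI.

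Opposite differences lay within one gene family, the alpha2delta subunits, which bring voltage-gated calcium channels to the membrane and to the presynaptic terminal and bind gabapentin in the case of the products of Cacna2d1 and Cacna2d2. Cacna2d1 (chr5:15934691-16374511) stood at 323, 441 and 864 CPM in VE and at 53.0, 143 and 256 CPM in VI. Every VE library lay above every VI library. The means were 484 ± 173 and 151 ± 64.2 CPM, and the log2 fold change was 1.49 (SE 0.17, edgeR adjusted p = 6.3e-09). Cacna2d3 (chr14:28904943-29721864) ran the other way, at 264, 457 and 626 CPM in VE and 558, 804 and 979.8 in VI. It was higher in VI in 8 of 8 mice with slightly overlapping ranges, at a fitted -0.86 (SE 0.15, edgeR adjusted p = 8.0e-05). Without the cx mice the 2 values were 1.83 and -0.90, and without VI-1 and VI-2 they were 1.71 and -0.93, all past the threshold. Of 16 voltage-gated calcium channel genes listed, 11 were tested and these were the only 2 called, and the median log2 fold change of the 11 was 0.02, beside -0.01 over all genes tested.

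Nrxn3 and Nxph1 were higher in VI. Neurexins are presynaptic adhesion proteins that bind neuroligins and other organizers across the synaptic cleft. Nrxn3 (chr12:88722876-90334935) stood at 2368, 3021 and 4174 CPM in VE and 3628, 5199 and 6225 CPM in VI. VI was higher in every mouse, from 4651 against 4174 CPM in control replicate 1 to 5937 against 2368 in control replicate 8. The log2 fold change was -0.68 (SE 0.10, edgeR adjusted p = 1.0e-05), and it was -0.62 without the cx mice and -1.03 without VI-1 and VI-2. Nxph1 encodes neurexophilin 1, a secreted ligand of alpha-neurexins, and stood at 48.0, 225 and 477 CPM in VE and 359, 507 and 713 CPM in VI. It was higher in VI in 7 of 8 mice, with control replicate 9 the exception, by -1.03 (SE 0.22, edgeR adjusted p = 0.0100). It was -1.37 without the cx mice and -1.33 without VI-1 and VI-2, both called. Leaving out control replicate 7 ended the call (-1.05, adjusted p = 0.0547).

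**Figure D2:**
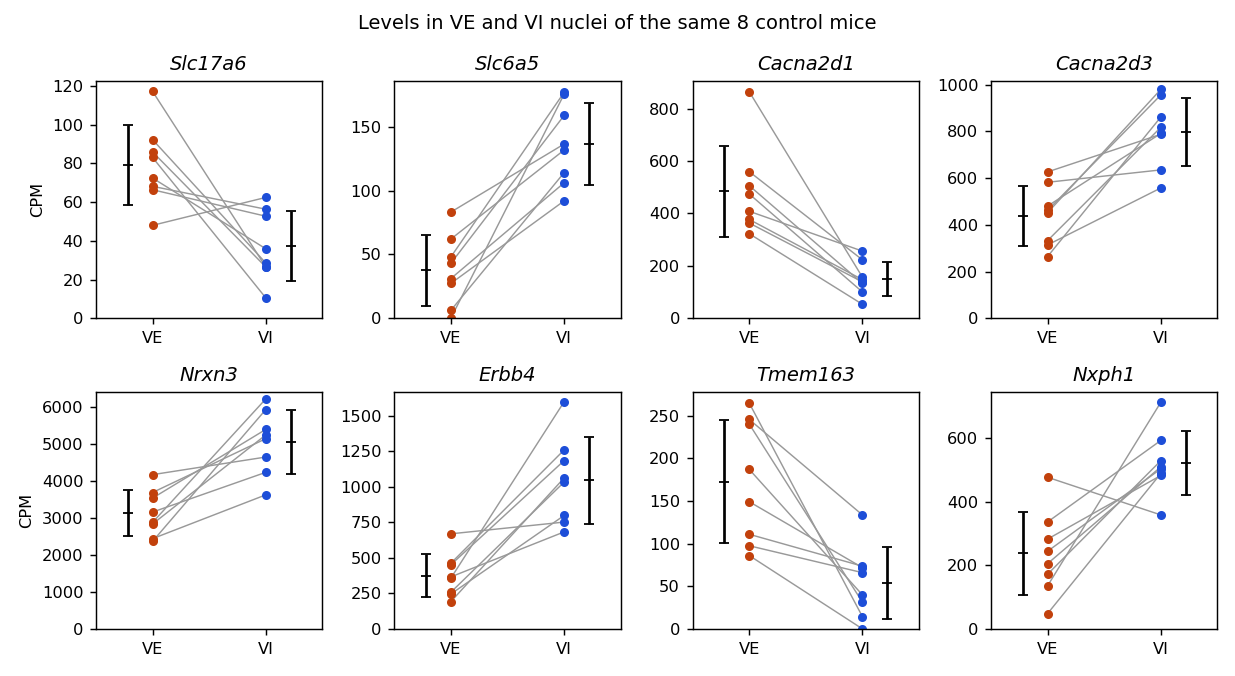
CPM of 8 genes in the VE (orange) and VI (blue) nuclei of each of 8 control mice, joined by a line per mouse; black marks give the mean and SD, and every y axis starts at 0. All 8 lines fall for Cacna2d1 and Tmem163 and all 8 rise for Slc6a5, Cacna2d3, Nrxn3 and Erbb4, while 1 mouse runs against the rest for Slc17a6 and for Nxph1.

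Erbb4 (chr1:68032186-69108059) encodes a neuregulin receptor known from forebrain inhibitory interneurons. It stood at 192, 362 and 669 CPM in VE and 683, 1047 and 1598 CPM in VI, and the groups did not overlap. The log2 fold change was -1.34 (SE 0.18, edgeR adjusted p = 4.8e-05). It was -1.53 without VI-1 and VI-2 (adjusted p = 0.0010) and -1.28 without the cx mice (adjusted p = 0.0538). Within VI the gene ranged from 603 CPM in VI-1 to 1445 in VI-5, and VE-2 held 783, above VI-1, VI-2 (709) and VI-3 (693).

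Among transcription factors, Pax2 was higher in VI and Meis2 was higher in VE. Pax2, a factor of inhibitory lineages, stood at 107 ± 37.7 CPM in VI and 44.8 ± 33.5 in VE, and it was higher in VI in 7 of 8 mice (log2 fold change -1.25, SE 0.30, edgeR adjusted p = 0.0100). Without VI-1 and VI-2 the value was -1.52 (adjusted p = 0.0400), and without the cx mice Pax2 did not pass the filter. Control replicate 9, whose VI nuclei were mostly VI-2, had 38.6 CPM in VI and 68.2 in VE. Meis2, a homeobox factor, stood at 205, 349.7 and 505 CPM in VE and 46.1, 168 and 257 CPM in VI, and 7 of 8 mice were higher in VE. Its log2 fold change was 1.14 (SE 0.17, edgeR adjusted p = 1.0e-05), with 1.12 without VI-1 and VI-2 and 1.09 without the cx mice, the last with an adjusted p of 0.0540. Of 28 inhibitory ventral lineage factors listed, 5 were tested and 1 was called in each direction, Pax2 being the call toward VI. Of 28 excitatory ventral lineage factors only 2 passed the filter and neither was called. Of 31 factors of depth and birth date 14 were tested and Meis2 alone was called.

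Among the other genes with large folds, Tmem163, which encodes a zinc transporter of synaptic vesicles, stood at 86.0, 168 and 265 CPM in VE and 0, 52.8 and 134 CPM in VI. It was higher in VE in 8 of 8 mice, with overlapping ranges, by 1.42 (SE 0.24, edgeR adjusted p = 8.0e-05), and by 1.80 without VI-1 and VI-2. Without the cx mice it did not pass the filter. Reln encodes reelin, a secreted guidance protein, and averaged 147 ± 100.2 CPM in VE and 72.7 ± 57.1 in VI (1.32, SE 0.23, edgeR adjusted p = 9.2e-05, higher in VE in 7 of 8 mice). It was 1.40 without VI-1 and VI-2 and did not pass the filter without the cx mice. VE-1 alone held 443 CPM of Reln (95% interval 363 to 535), against 90.8 to 181 in the other VE populations and 96.6 in VI-5.

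Other genes with large folds toward VE were Chst9 and Ndst4, which encode sulfotransferases of glycan chains, Kctd8, an auxiliary subunit of GABA-B receptors, Fam19a1, a secreted chemokine-like protein, and Cep112, a centrosomal protein. Their log2 fold changes ran from 0.77 to 1.01. Leaving out control replicate 7 ended the calls of Ndst4 (0.78) and Kctd8 (0.88), and leaving out any of 4 mice ended those of Fam19a1 (0.80 to 0.86) and Cep112 (0.62 to 0.88). Kctd8 did not overlap, with VE from 275 to 464 CPM and VI from 28.5 to 270.3. Toward VI the others were Sart3, a splicing recycling factor, Tmem132d, a membrane protein, Asap2, an Arf GTPase activator, Mtss1, a membrane-bending actin regulator, St18, a zinc finger factor, and Col11a1, a fibrillar collagen chain. Their log2 fold changes ran from -1.39 to -0.91, and the groups did not overlap for Asap2. St18 was not called without control replicate 8 (-0.84, adjusted p = 0.0529). Mtss1 kept its call without VI-1 and VI-2 (-0.86) and without the cx mice (-1.23). It lost the call without VE-4, where 6 mice remained (-0.50, adjusted p = 0.421). Col11a1 was called without the cx mice (-1.03) and not without VI-1 and VI-2 (-0.57, adjusted p = 0.245).

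**Figure D3:**
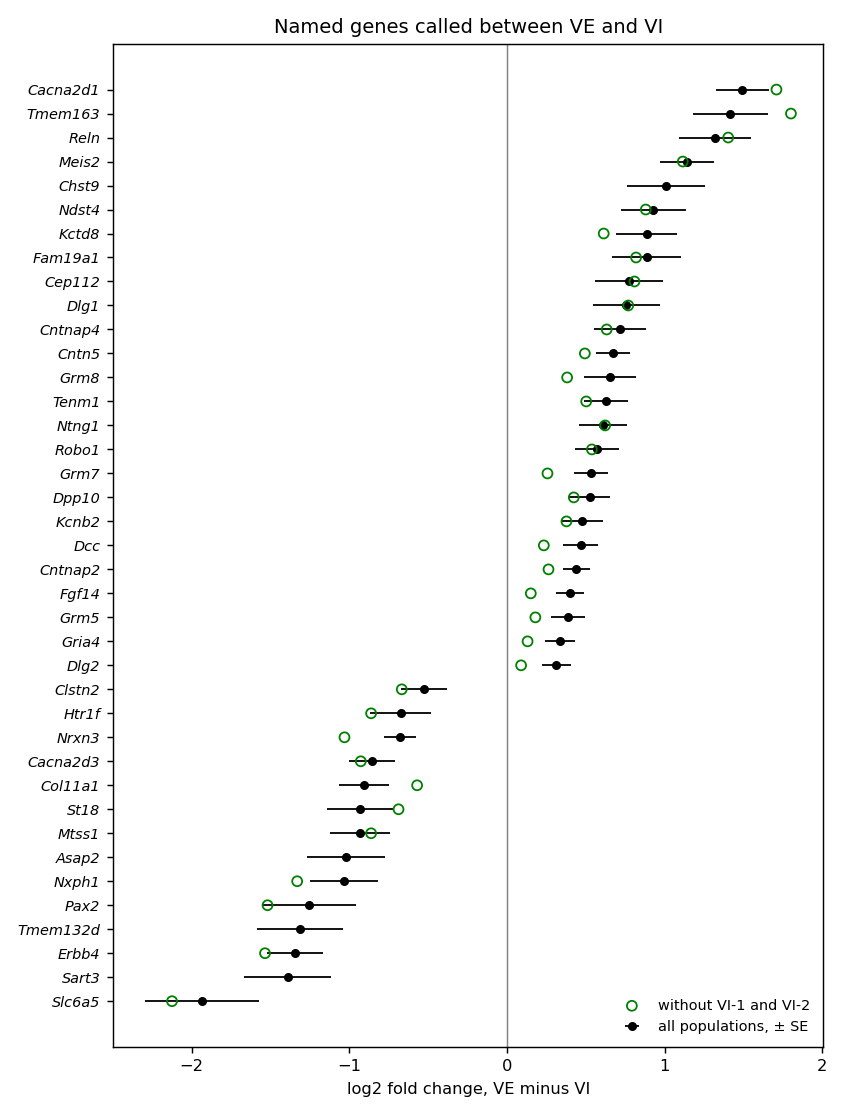
Fitted log2 fold change, VE minus VI, of 39 named genes called in control mice (black, bars ± SE), and the same without VI-1 and VI-2 (green rings, absent where the gene did not pass the filter). Cacna2d1, at 1.49 and 1.71, and Slc6a5, at -1.93 and -2.12, had the highest and the lowest value with all populations, Tmem163 was highest at 1.80 without VI-1 and VI-2, and the small positive folds near the centre move toward 0.

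Genes of synaptic adhesion were called in both directions. Of 52 neurexin, neuroligin and organizer genes listed, 31 were tested, 9 were higher in VE and 2, Nrxn3 and Clstn2, were higher in VI, 35.5% of the 31 beside 3.14% over all genes tested. The 9 were Cntn5, Cntnap2, Tenm1, Cntnap4, Cntn4, Ntng1, Cntnap5a, Tenm2 and Lrrtm4, which encode contactins, contactin-associated proteins, teneurins, a netrin-G and a leucine-rich repeat organizer. The median log2 fold change of the 31 was 0.25. Cntn5 was the steadiest, at 1668, 2133 and 2863 CPM in VE and 927, 1288 and 1980 CPM in VI, and it was higher in VE in 8 of 8 mice (0.67, SE 0.11, edgeR adjusted p = 2.8e-05). Cntnap2 did not overlap, with VE from 5244 to 7247 CPM and VI from 3969 to 5173 (0.44, SE 0.09, edgeR adjusted p = 0.00078). Clstn2, a calsyntenin, was 392 ± 100.2 CPM in VE and 548 ± 112 in VI (-0.52, SE 0.15, edgeR adjusted p = 0.0302). It was -0.62 without the cx mice and -0.67 without VI-1 and VI-2, neither called. Leaving out control replicate 7 ended the calls of Cntnap4 (0.66) and Ntng1 (0.55). None of the 9 genes higher in VE was called without VI-1 and VI-2, and of the 11, Nrxn3 and Cntn5 were called without the cx mice.

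Glutamate receptor genes were higher in VE where they were called, while the medians of their lists lay near 0. Of 14 AMPA, kainate and delta receptor genes tested, 14.3% were called and 4 were negative, with a median log2 fold change of 0.07. Gria4, an AMPA receptor subunit, was higher in VE by 0.34. Of 9 NMDA and metabotropic receptor genes tested, Grm7, Grm8 and Grm5 were higher in VE, by 0.53, 0.65 and 0.39. That is 33.3% of the 9, beside 3.14% called over all genes tested. Of the 9, 4 were negative, and the median was 0.03. Grm7, a presynaptic group III receptor, stood at 1441, 1738 and 1862 CPM in VE and 885, 1165 and 1743 CPM in VI, higher in VE in 8 of 8 mice (SE 0.11, edgeR adjusted p = 0.0017). Without VI-1 and VI-2 the 4 genes Gria4, Grm7, Grm8 and Grm5 had log2 fold changes of 0.13 to 0.38 and none was called. Pooled Grm7 was 889 CPM in VI-1 and 830.3 in VI-2, against 1795 in VI-5, which lay above 1643 in VE-4.

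Calls among channels, scaffolds, guidance genes and receptors were few, 1 to 3 per list. Shares that rest on so few genes give no result about these families. Of the genes tested, 14.3% of sodium channel genes, 7.14% of potassium and HCN channel genes and 10.5% of scaffolds were called. The share was 13.6% for guidance genes and 14.3% for peptide and amine receptors, beside 3.14% over all genes tested. Fgf14, which binds voltage-gated sodium channels, was 4934 ± 611 CPM in VE and 3776 ± 413 in VI and was the 1 call of 7 sodium channel genes tested (0.40, SE 0.09, edgeR adjusted p = 0.0035). Dpp10, an auxiliary subunit of A-type potassium channels, and Kcnb2, a delayed rectifier, were the 2 calls of 28 potassium and HCN channel genes, by 0.53 and 0.48. The scaffolds Dlg1 and Dlg2 were 2 calls of 19, by 0.76 and 0.31, and the guidance receptors Dcc and Robo1 and the adhesion protein Ntng1 were 3 of 22, by 0.47, 0.57 and 0.61. Dcc was not called without control replicate 2 (0.40), nor Robo1 without control replicate 6 (0.51) or 9 (0.49). The channel, scaffold and guidance genes named were all higher in VE in the full comparison. None of them was called without VI-1 and VI-2 or, where tested, without the cx mice. Of the glutamate receptor, sodium and potassium channel, scaffold and guidance genes named, all but Grm7 and Fgf14 lost their call when at least 1 mouse was left out. Htr1f, a serotonin receptor coupled to Gi proteins, was the 1 call of 7 peptide and amine receptors tested and was higher in VI, at 149.7 ± 66.4 against 100.7 ± 62.5 CPM (-0.67, SE 0.19, edgeR adjusted p = 0.0348). It was -0.44 without the cx mice (adjusted p = 0.737) and -0.86 without VI-1 and VI-2 (adjusted p = 0.0535).

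Several lists gave no call. None of 15 GABA and glycine receptor genes, 18 cadherins and protocadherins, 21 presynaptic genes or 5 Hox genes tested was called, with median log2 fold changes of 0.20, 0.20, 0.04 and -0.18. Over all genes tested 3.14% were called, so lists this short can easily hold no call, and this gives no result about these families. No gene of rapid activity, Fos among them, and none of acetylcholine and monoamine synthesis passed the filter.

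RNA of another cell type and of mitochondria moved with the contrast. The 7 oligodendrocyte markers summed to 864 ± 449 CPM in VE (194 to 1466) and 1428 ± 1021 in VI (406 to 3287), higher in VI in 7 of 8 mice, and none of the 7 was at 0. Mitochondrially encoded RNA was 4519 ± 3137 CPM in VE and 6886 ± 6717 in VI, higher in VI in 8 of 8 mice, and mt-Rnr2, mt-Nd2 and the nuclear RNA Malat1 were among the VI calls. By population, mitochondrial RNA was 21080 CPM in VI-2 and 3884 to 8091 CPM in the other 8 populations, and the oligodendrocyte sum was 3480 CPM in VI-2 and 737 to 1823 in the others. Neuron markers summed to 39470 ± 4333 CPM in VE and 35750 ± 3444 in VI. Dorsal horn neuron markers summed to 147 ± 42.6 CPM in VE and 198 ± 46.2 in VI, higher in VI in 7 of 8 mice. Motor neuron markers, at 104 ± 50.3 and 131 ± 20.8 CPM, were higher in VI in 6 of 8 mice. Most of that sum was Slit3, found in every population, at 72.6 to 175.8 CPM pooled in VE and 91.5 to 175.6 in VI. Chat averaged 3.06 CPM in VE and 3.78 in VI. The genes called higher in VE were long, with a median span of 551 kb from start to end, against 51.9 kb for those higher in VI and 99.7 kb over the genes tested. Across 2772 genes the fold change and the log of the span correlated at r = 0.258, a description over genes that share libraries. The part of depth, oligodendrocyte RNA, mitochondrial RNA and span in the calls that were lost without VI-1 and VI-2 was not tested.

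The populations showed which nuclei carried the differences. For Cacna2d1 all 4 VE populations, from 384 to 480 CPM, lay above all 5 VI populations, from 102 to 285 CPM, the highest of them VI-2. Nrxn3 did not behave so. VI-4 and VI-5 held 6372 and 6874 CPM, whereas VI-1, VI-2 and VI-3 held 2672 to 3696 CPM, within or below the 3134 to 3708 CPM of the VE populations. Nxph1 followed the same division, with 819 and 605 CPM in VI-4 and VI-5 and 281 to 338 in the other VI populations, against 163 to 314 in VE. Sart3 had the reverse division, with 225 CPM in VI-2, 160 in VI-3 and 110.5 in VI-1, and 51.2 and 49.6 in VI-4 and VI-5, against 26.6 to 54.4 in VE. Asap2 was highest in VI-1 at 161 CPM.

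**Figure D4:**
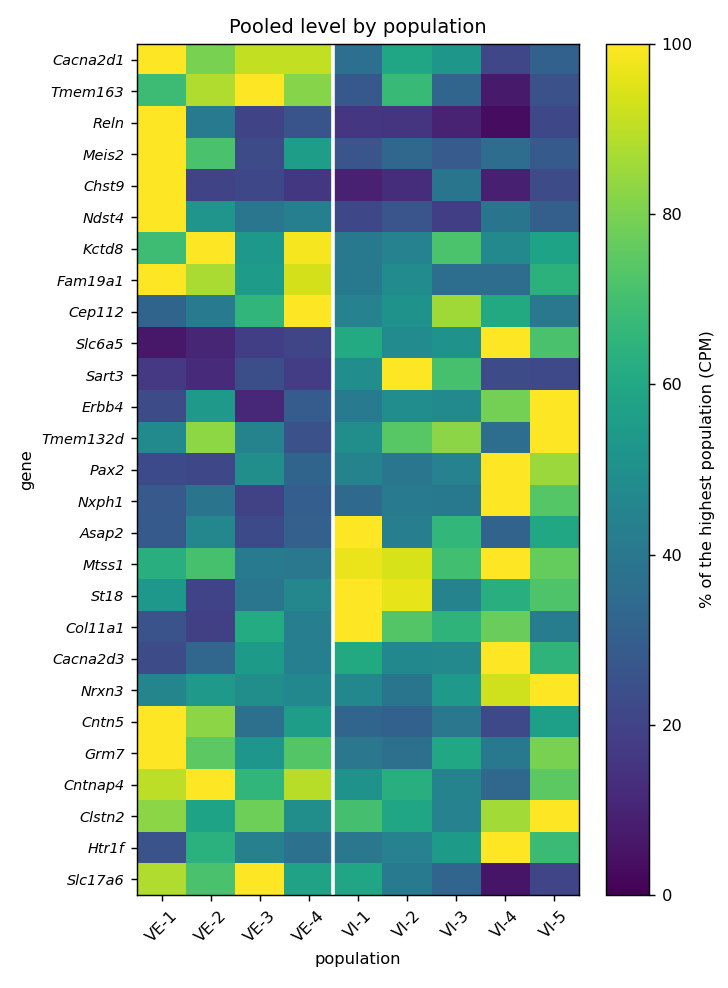
Pooled CPM of 27 genes in the 9 populations of control mice, each gene as a percent of its highest population; the white line parts VE from VI. Cacna2d1 is high in the 4 VE columns, Nrxn3, Nxph1 and Pax2 are highest in VI-4 and VI-5, and Sart3 is highest in VI-2.

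Some genes set single populations apart within their family, by pooled counts alone. VE-1 held 335 CPM of Chst9 and 352 of Cpa6, a carboxypeptidase, against 72.6 and 85.3 CPM in the next VE population. VE-2 held 203 CPM of Oprm1, the mu opioid receptor, against 99.4 in VE-1. VI-2 held 607 CPM of Mtor, the growth kinase, against 120.5 in VI-1. VI-1 held 191 CPM of Ntng2, a netrin-G, against 51.2 in VI-4, and VI-5 held 72.4 CPM of Epha3, an ephrin receptor, against 29.6 in VI-3. These values describe the clusters and carry no test.

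The dorsal horn of the same 8 mice served as a comparison, with 611 DE and 423 DI nuclei. The difference between excitatory and inhibitory nuclei was itself compared between ventral and dorsal nuclei, and 307 of 3754 genes tested (8.18%) were called, 147 (3.92%) with a more positive and 160 (4.26%) with a more negative ventral difference. In this joint fit the ventral values differ slightly from those above. Of the 88 ventral calls, 57 had a dorsal fold change in the same direction and 31 in the opposite one. The test called 43 of the 88 as different from dorsal, of which 28 had fitted values of opposite sign and 15 of the same sign. The 88 were picked on the same VE and VI libraries that enter this test, so these counts are partly set by that choice. The dorsal contrast was not tested on its own, and the dorsal value of several of the 28 was near 0, such as -0.13 for Grm7.

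Among those 28 genes Erbb4 had the largest difference. It was 375 ± 153 CPM in VE and 1046 ± 305 in VI, and 1545 ± 193 in DE and 288 ± 41.9 in DI, so that the inhibitory side was high ventrally and the excitatory side dorsally. The ventral log2 fold change was -1.31 and the dorsal one 2.44, a difference of -3.75 (SE 0.22, edgeR adjusted p = 1.7e-16) with the same sign in 8 of 8 mice. Cntnap4, known as an organizer of GABA terminals, had the opposite signs, with 0.68 ventrally and -2.03 dorsally (difference 2.71, SE 0.24, edgeR adjusted p = 6.9e-15, 8 of 8 mice). The ventral and dorsal values were -0.91 and 1.03 for Mtss1, -1.16 and 1.01 for Tmem132d, 0.48 and -1.20 for Kcnb2, and 0.57 and -0.69 for Robo1, and the difference was called for each.

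Of the 15 genes of the same sign, 13 had the larger fold in the dorsal horn. Cacna2d1 was 1198 ± 211 CPM in DE and 66.9 ± 15.8 in DI, a dorsal log2 fold change of 4.11 against 1.41 ventrally (difference -2.70, SE 0.23, edgeR adjusted p = 5.0e-15, 8 of 8 mice). Cacna2d3 was -2.70 dorsally and -0.79 ventrally, Nrxn3 -2.01 and -0.66, Pax2 -3.94 and -1.14, Slc6a5 -3.88 and -1.98, and Reln 4.44 and 1.17, and the difference was called for each. Slc17a6, which passed this filter, was 3.45 dorsally and 1.17 ventrally (difference -2.28, SE 0.48, edgeR adjusted p = 0.00035). For Tmem163 and Meis2, at 2.63 and 2.53 dorsally, the difference missed the threshold (adjusted p = 0.0554 and 0.0757).

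Other genes contrasted the dorsal families with little ventral difference. Grik2, a kainate receptor subunit, was 1065 ± 283 CPM in VE and 989 ± 208 in VI, against 671 ± 186 in DE and 2052 ± 281 in DI. Dscam, an adhesion protein of neurite spacing, was 1313 ± 171 and 1169 ± 128 CPM in VE and VI, against 1398 ± 156 and 383 ± 73.4 in DE and DI. Maml3, a Notch coactivator, was 116 ± 38.6 and 126 ± 31.9 CPM ventrally, against 533 ± 77.3 in DE and 118 ± 12.2 in DI. None of these 3 was called between VE and VI. Without the cx mice this comparison gave 137 calls in place of 307.

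**Figure D5:**
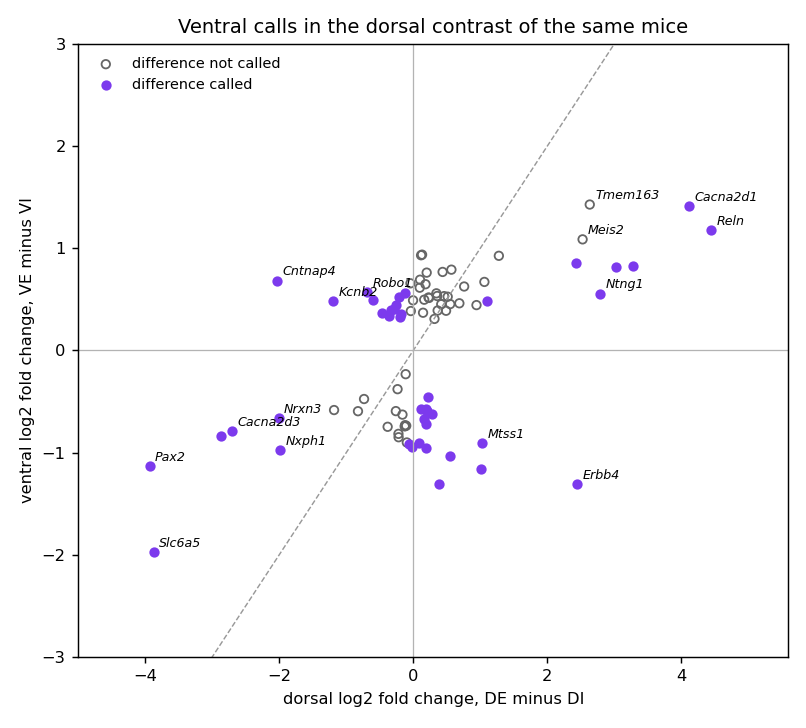
The 88 genes called between VE and VI, with the dorsal log2 fold change (DE minus DI) on the x axis and the ventral one (VE minus VI) on the y axis, both from the joint fit of 8 mice; filled points are the 43 genes whose ventral and dorsal differences were called as unlike, and the dashed line is equality. Erbb4 lies at 2.44 and -1.31, and Cacna2d1 at 4.11 and 1.41.

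The same contrast was measured in mice the rule did not use. Of the formalin and rotarod mice, 7 and 3 had at least 5 nuclei of both families, with 210 VE and 171 VI nuclei. VI-2, so frequent in the cx control mice, had 2 nuclei in all formalin mice and 32 in all rotarod mice. In these 10 mice 89 of 2337 genes tested (3.81%) were called, 50 higher in VE (2.14%) and 39 higher in VI (1.67%). Of the 88 control calls, 81 were tested here, 76 of them in the same direction. Both sets of mice called 28 genes in the same direction, which is 31.8% of the control calls and 31.5% of the stimulated ones. The populations were clustered over all mice together, so this recurrence is again one of cluster labels.

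Cacna2d1 was 377 ± 89.1 CPM in VE and 148 ± 123 in VI of these mice (SD, n = 10), higher in VE in 10 of 10 (log2 fold change 1.45, SE 0.27, edgeR adjusted p = 0.0068). Cacna2d3 was higher in VI in 9 of 10 (-0.95, SE 0.14, edgeR adjusted p = 1.1e-05) and Nrxn3 in 10 of 10 (-0.87, SE 0.09, edgeR adjusted p = 7.7e-09). Tmem163 was 200.3 ± 111 CPM in VE and 33.5 ± 26.9 in VI, higher in VE in 10 of 10 (2.38, SE 0.23, edgeR adjusted p = 1.7e-09). Slc6a5, Pax2, Erbb4, Clstn2 and Htr1f were called higher in VI, by -2.31, -2.05, -1.57, -0.98 and -0.97. Cntn5, Grm7, Dpp10, Gria4 and Fam19a1 were called higher in VE, by 0.54, 0.65, 0.67, 0.32 and 1.16. Slc17a6 was 102 ± 33.1 CPM in VE and 30.9 ± 29.0 in VI and was higher in VE in 10 of 10 mice.

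Other control calls did not pass the test in the stimulated mice. Nxph1 was at -0.91 (edgeR adjusted p = 0.152), Mtss1 at -0.47 (0.213) and Reln at 0.88 (0.414). Meis2, Cntnap4 and Ndst4, higher in VE in control mice, were at -0.06, -0.14 and -0.20. By mouse, VE was still higher in 8 of 10 for Meis2 and 7 of 10 for Ndst4, but in 4 of 10 for Cntnap4. VI levels spread widely, at 309 ± 165 CPM for Meis2 and 218 ± 278 for Ndst4. The test of the difference itself, stimulated minus control, called 0 of 2690 genes in edgeR (0%; 111 at an unadjusted p below 0.05) and 0 in DESeq2 (230 at an unadjusted p below 0.05). The smallest p-values belonged to Vps54, a subunit of a Golgi tethering complex (1.40, SE 0.35), Meis2 (-1.19, SE 0.29) and Cntnap4 (-0.86, SE 0.24), each with an edgeR adjusted p of 0.307. With no filter on low counts 3 genes were called, and with formalin samples merged in pairs 1.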

How the data were processed

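Per the labels, nuclei of 24 mice were profiled by Drop-seq, and the submitters' processing notes name mm10 and GRCm38. The authors deposited raw UMI counts (32962 genes, 18000 barcodes, 750 per mouse) and an annotation with populations; the aligner, gene models and strand setting behind them are not stated in those sources, so overlapping or near-identical genes may share counts. D and V were read as dorsal and ventral, E and I as excitatory and inhibitory. Doublets were not called again.

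Counts were summed per mouse and family and tested with edgeR 4.0.16 in R 4.3.3 (quasi-likelihood, robust, TMM, filterByExpr by family, Benjamini-Hochberg at 0.05) with the mouse as block. SE is the absolute fold change over the root of F. CPM are UMIs per 1000000 UMIs of the same nuclei, averaged over mice. VE and VI deviations of the same mouse correlated at 0.215 on average (0.106 to 0.365, n = 8 mice) and those of different mice at -0.026; both libraries come from 1 animal, which is the source of the pairing. On simulated counts of 2659 genes, 33.0% of log2 changes of 0.5 and 94.4% of changes of 1 were recovered, with 4 false of 118 calls. Those counts came from a profile shared by all mice, without mouse effects or populations that differ between mice. The recovery and false calls therefore need not hold for the contrast measured here.

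Named genes were the 10 largest called folds each way at 30 CPM or more without predicted symbols, up to 4 calls per list and direction, the transmitter genes, Chat and Fos, the 6 smallest p each way against dorsal, the 3 smallest p against stimulated mice, and population genes with at least 30 UMIs; any further gene was picked with its values in view, and a few genes picked by this rule are left unreported. Members, lists and rules were chosen with earlier results of these data known. Alternatives were DESeq2 1.42.0, its size factors, no filter, no block, 10 nuclei, thinning to 1000 UMIs, leaving out mice or populations, and merged formalin samples; leaving out VI-1 with VI-2 was added after seeing the data. Gene positions are GENCODE's on GRCm38. Python 3.11.15 with numpy 2.4.6, scipy 1.17.1, pandas 2.3.3 and matplotlib 3.10.9 was used.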

Additional observations from a re-analysis of the deposited data

Results flagged for a closer look

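In 5 of 42 sets of per-mouse log2 ratios (VE minus VI, 0.5 UMIs added to each library), 1 mouse stood apart from the other 7; chance flags about 1 in 20. Kctd8 was 3.56 in control replicate 2, Tmem132d -4.55 and Asap2 -3.76 in control replicate 5, Fgf14 0.735 in control replicate 9 and Dlg1 -1.25 in control replicate 3. Replicates 3 and 5 had the fewest VE nuclei, 5 and 9.

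The excitatory minus inhibitory difference was unlike in ventral and dorsal nuclei, by the test of that difference, for the 12 genes with the smallest p. It was more positive ventrally for Grik2 (1.79), Cntnap4 (2.71), Nrxn3 (1.35), Zmat4 (1.77), Nkain2 (1.08) and Cplx2 (1.92). It was more negative ventrally for Erbb4 (-3.75), Cacna2d1 (-2.70), Dscam (-1.66), Maml3 (-2.22), Meis1 (-3.11) and Casz1 (-4.95). All of these are differences of log2 fold changes over 8 mice.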

How the results depend on the processing

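The 88 calls between VE and VI became 39 with no filter on low counts and 24 with no replicate block. They became 40 without VE-4 (6 mice) and 34 without VI-2 (8 mice). Without VI-1 and VI-2 (7 mice) there were 15, and without the 3 cx mice (5 mice) 14. Fewer genes were tested in these last 4 alternatives. Leaving out 1 mouse gave 32 (without control replicate 7) to 89 calls, with 53 without replicate 8 and 55 without replicate 9. DESeq2 gave 69, its size factors in edgeR 96 and at least 10 nuclei 84. Thinning each nucleus to 1000 UMIs gave 75 of 342 genes tested, of which 38.7% were higher in VE, against 58.0% in the full data. Cacna2d1, Cacna2d3, Nrxn3, Ralyl, Gm26871 and Tmem163 were called in each of the 14 to 18 alternatives, of 18, that tested them. Sart3 and Tmem132d were tested in 8 and 9, both called there, but not in those without the cx mice, VI-1, VI-2 or VE-4. The 307 differences between ventral and dorsal became 203 with no replicate block and 137 without the cx mice, and 230 to 305 with 1 mouse left out. The 0 calls for stimulated minus control became 3 with no filter and 1 with formalin samples merged in pairs. The log2 difference in UMIs per nucleus, 0.43, ranged from 0.314 to 0.527 with 1 mouse left out and was 0.827 with medians. Without the 3 cx mice it was 0.217, with VE higher in 3 of 5 mice (exact sign-flip test, p = 0.375, smallest possible 0.0625). Of the values of single named genes under alternatives, 200 lost their call, 2 gained one and none reversed; of the other genes among the 88, Gm23935 turned from -0.92 to 0.09 without VI-1 and VI-2, and Pdzrn4 turned on thinning. The cause of these changes was not tested beyond the fewer genes or mice named. The least deep library, of 20825 UMIs, limits the genes that could be tested.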
